A study of Mus musculus with 9 samples.

Results

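The transcription factor gene Nkx2-2 and 7 genes placed within about 1 Mb of it on mouse chromosome 2 were followed through 9 RNA sequencing libraries of whole embryonic pancreas. The 8 genes were Nkx2-2, Nkx2-2as, AI646519, Foxa2, Plk1s1, Xrn2, Ralgapa2 and Insm1, chosen by name and position, and they are 8 of the 23235 gene symbols in the deposited tables. The embryos were at stage e15.5, on a mixed C57BL/6 and 129Sv background. Of the 9 libraries, 3 were labelled wild type, 3 heterozygous for Blinc1 (Blinc1+/-) and 3 knockout (Blinc1-/-). Blinc1 encodes a long noncoding RNA and lies next to Nkx2-2. How its allele was made is not given in the sources used here, and Blinc1 was not analysed here under that name. Values are in FPKM, fragments scaled to transcript length and to sequencing depth, so levels can be set side by side, approximately, between genes and between libraries. The main test applied no further scaling between libraries. Whether replicates were separate embryos or litters is not stated in the labels, so every p-value measures only the spread between these samples, which may be technical. Sex genes limit this in part: replicate 3 of wild type and of heterozygotes was female, and replicates 1 and 2 were male. Neither of these groups was therefore 1 sample measured repeatedly.

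Nkx2-2 encodes a homeodomain factor that endocrine progenitors and most islet cells use, and mice that lack it make no insulin-producing beta cells and an excess of ghrelin cells. It acts largely as a repressor, with Groucho-type corepressors, and its gene is itself switched on in the endocrine lineage after the bHLH factor Neurog3. Insm1 is a zinc finger factor of the same lineage and another target of Neurog3. Foxa2 is a forkhead factor of the whole gut endoderm and its organs, and it marks the pancreatic epithelium broadly. The other neighbours have general roles or none that is well described: Xrn2 is a nuclear exonuclease of transcription termination, Plk1s1 (also named Kiz) is a centrosome protein, Ralgapa2 is a subunit of the complex that switches off Ral GTPases, and Nkx2-2as and AI646519 are noncoding transcripts.

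Upstream sequences are shown for 3 of the genes: Nkx2-2, whose level varied most among the 6 genes that could be tested, and Foxa2 and Plk1s1, whose knockout and wild-type libraries did not overlap. Each is the 250 bases before an annotated start, 5' to 3' on the gene's strand, from RefSeq on GRCm38.p6, a later build than the mm9 of the expression tables. The table held 7 of the 8 genes (Plk1s1 as Kiz, Nkx2-2as as Nkx2-2os) and not Insm1, and for Foxa2 the first of its 3 annotated starts is used. Capitals mark matches, on either strand, to the E-box letters CANNTG that bHLH factors read, to AAGTG, the core read by NK2 homeodomain factors, and to the forkhead letters TGTTTAC. The windows lie at chr2:147186403-147186652 (minus strand), chr2:148046970-148047219 (minus strand) and chr2:146855630-146855879 (plus strand).
Nkx2-2: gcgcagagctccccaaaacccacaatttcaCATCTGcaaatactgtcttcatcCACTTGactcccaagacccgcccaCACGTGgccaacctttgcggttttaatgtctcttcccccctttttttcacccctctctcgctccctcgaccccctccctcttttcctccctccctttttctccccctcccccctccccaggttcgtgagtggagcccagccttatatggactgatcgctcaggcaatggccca
Foxa2: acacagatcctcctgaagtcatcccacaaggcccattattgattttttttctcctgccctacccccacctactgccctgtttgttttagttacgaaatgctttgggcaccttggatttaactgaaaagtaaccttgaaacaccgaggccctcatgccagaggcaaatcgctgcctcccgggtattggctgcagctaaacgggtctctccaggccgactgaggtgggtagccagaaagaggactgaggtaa
Plk1s1: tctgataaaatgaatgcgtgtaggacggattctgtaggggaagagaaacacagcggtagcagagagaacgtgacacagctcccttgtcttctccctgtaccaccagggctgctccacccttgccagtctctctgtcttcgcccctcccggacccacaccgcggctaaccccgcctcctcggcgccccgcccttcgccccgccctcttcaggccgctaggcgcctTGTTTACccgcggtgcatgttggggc

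The Nkx2-2 window held 3 matches to CANNTG, which begin at positions -220 (CATCTG), -197 (CACTTG) and -173 (CACGTG) from the start. Its 1 match to AAGTG, on the opposite strand as CACTT, lies inside the middle E-box match and also begins at -197. E-box letters are common: 66.2% of the 32851 RefSeq windows of this length held at least 1 match, and 40.7% held AAGTG. The Plk1s1 window held TGTTTAC at -26, and 3.17% of windows held those letters. The Foxa2 window held none of the motifs searched, which also included TGTTTGC and TATAAA (in 4.30% and 12.4% of windows). Its 6 CpG dinucleotides equal the median of all windows, against 8 for Nkx2-2 and 18 for Plk1s1. These matches are letters only, and no binding was measured.

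Before the results, the libraries themselves. The depth implied by the deposited confidence bounds was 19532984 to 25437255 fragments per library. All 3 knockout libraries, and 1 each of the wild-type and heterozygote libraries, came from female embryos by Xist (34.98 to 40.25 FPKM, against at most 0.0608 in the other 4), so sex and the knockout genotype are partly tied. Knockout replicate 1, as labelled, stood apart from its group in Nkx2-2, at 24.9 FPKM against 6.08 and 5.48. Heterozygote replicate 1 was the lowest of 3 heterozygotes whose deposited intervals all lay apart (6.37, 18.99 and 13.4 FPKM). Values without each of these 2 libraries are given below. The genotype labels could not be checked on Blinc1 itself, so every direction given here is that of the groups as labelled, these 2 libraries included. Both also had the highest sums of 7 neural markers, 166 and 207 FPKM against 39.6 to 110 in the other 7 libraries, mostly Tubb3 and Stmn2, 2 neuron genes. Nkx2-2 was low in one of these 2 libraries and high in the other. The oligodendrocyte lineage factors Olig2 and Olig1, of the same list, were at or below 0.0408 and 0.0618 FPKM. The part of neural RNA in the Nkx2-2 values was not tested. Of genes that define the pancreas, the acinar enzyme Cpa1 was at 8243 ± 353 FPKM in wild type (SD, n = 3), and Cdx2, a factor of the intestine, did not exceed 0.250 FPKM in any library.

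On mm9 chromosome 2 the 8 genes are spread over both sides of Nkx2-2. In order along the chromosome they are Insm1 (chr2:146047733-146050754, plus strand), Ralgapa2 (chr2:146067035-146337740, minus), Plk1s1 (chr2:146681625-146795825, plus) and Xrn2 (chr2:146838796-146903733, plus). Nkx2-2 follows (chr2:147003282-147012138, minus), then Nkx2-2as (chr2:147009819-147157417, plus), AI646519 (chr2:147187279-147188529, minus) and Foxa2 (chr2:147868614-147872705, minus). The Xrn2 entry ends 99.5 kb before that of Nkx2-2 and the Foxa2 entry begins 856 kb after it. GENCODE on the same build places 6 of the 8 as protein coding, Nkx2-2as as a lincRNA and AI646519 as a processed transcript. Of the 13 entries within 1 Mb, the other 5 were at or near 0: Nkx2-4, 4933406D12Rik and A530006G24Rik were listed at 0 in all 9 libraries, A930019D19Rik did not exceed 0.189 FPKM, and Pax1 did not exceed 0.0396 FPKM. The pancreas thus gave signal of 1 FPKM or more at 6 entries of the window, all of them among the 8 genes.

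The order of levels was led by the broadly used genes. In wild type Xrn2 was highest at 38.8 ± 2.79 FPKM (SD, n = 3), then Foxa2 at 30.1 ± 1.61, Nkx2-2 at 20.8 ± 5.18, Plk1s1 at 17.5 ± 1.01, Insm1 at 11.7 ± 1.84 and Ralgapa2 at 2.33 ± 0.0958. Nkx2-2 and Plk1s1 were neighbours in that order whose libraries overlapped. All other neighbours in it were separated in wild type. In heterozygotes and knockouts the libraries of Nkx2-2 overlapped those of both Plk1s1 and Insm1, and in knockouts those of Xrn2 and Foxa2 overlapped as well.

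**Figure D1:**
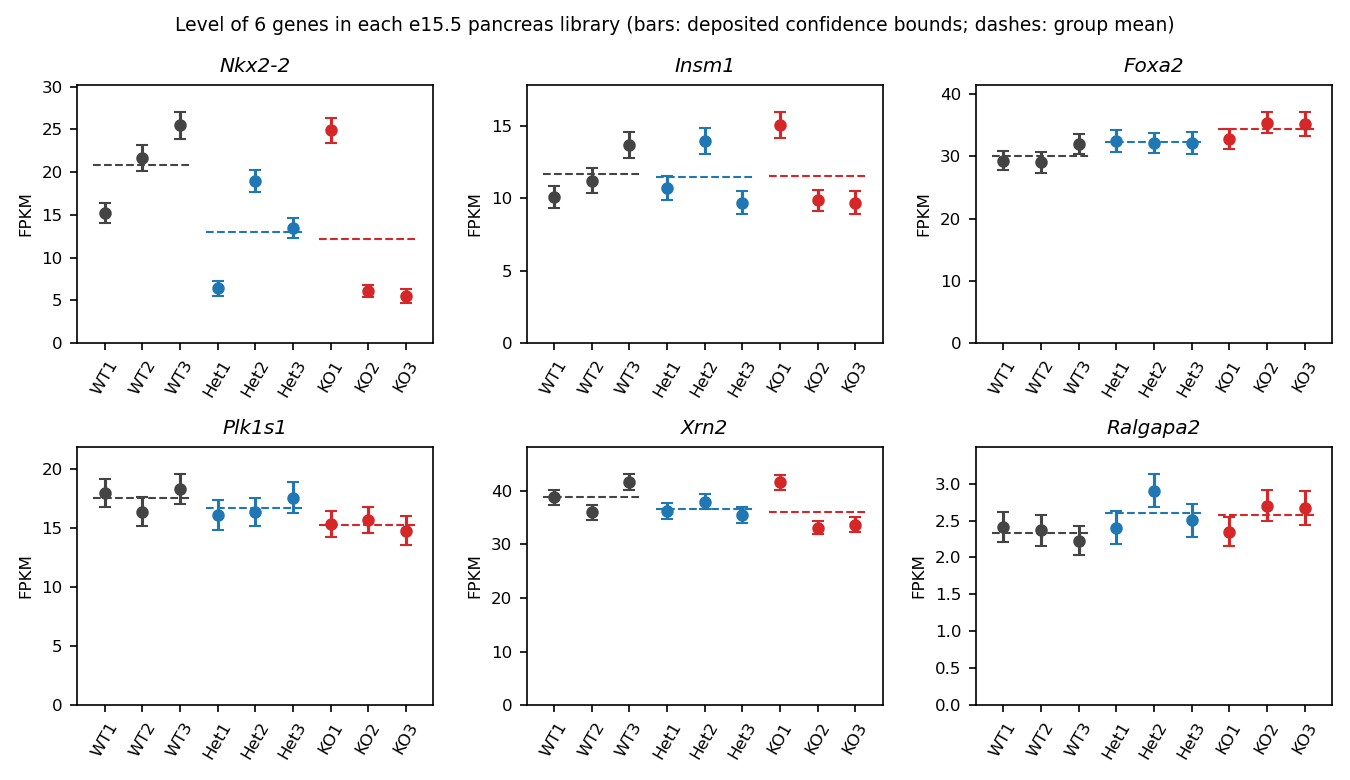
FPKM of the 6 expressed genes in each of the 9 libraries, with the deposited confidence bounds as bars and group means as dashes, coloured by genotype. Nkx2-2 runs from 5.48 to 25.5 FPKM with knockout replicate 1 among the highest, while Foxa2 stays between 29.1 and 35.5 FPKM.

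Replicates 1 to 3 of wild type gave 15.2, 21.7 and 25.5 FPKM of Nkx2-2 itself. The heterozygotes gave 6.37, 18.99 and 13.4 FPKM, and the knockouts 24.9, 6.08 and 5.48 FPKM. Knockout replicates 2 and 3 and heterozygote replicate 1 were the 3 lowest libraries. The next value up was 2.11 times the highest of these 3, and knockout replicate 1 was the second highest library of all. The groups therefore overlapped, with means of 20.8 ± 5.18, 12.9 ± 6.32 and 12.2 ± 11.1 FPKM (SD, n = 3 each).

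These values rest on 198.5 to 1144 implied fragments per library, and counting error is small beside the differences. The deposited confidence intervals of Nkx2-2 were apart in 8 of the 9 pairs of libraries of the same genotype, and in 22 of the 27 pairs of different genotypes. The spread within groups, as a residual SD on the log2(FPKM + 1) scale, was 0.80, where counting would give 0.061. It was larger than that of 99.4% of the 13306 genes tested, and larger than that of 99.5% of the 1000 genes of most similar level.

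**Figure D2:**
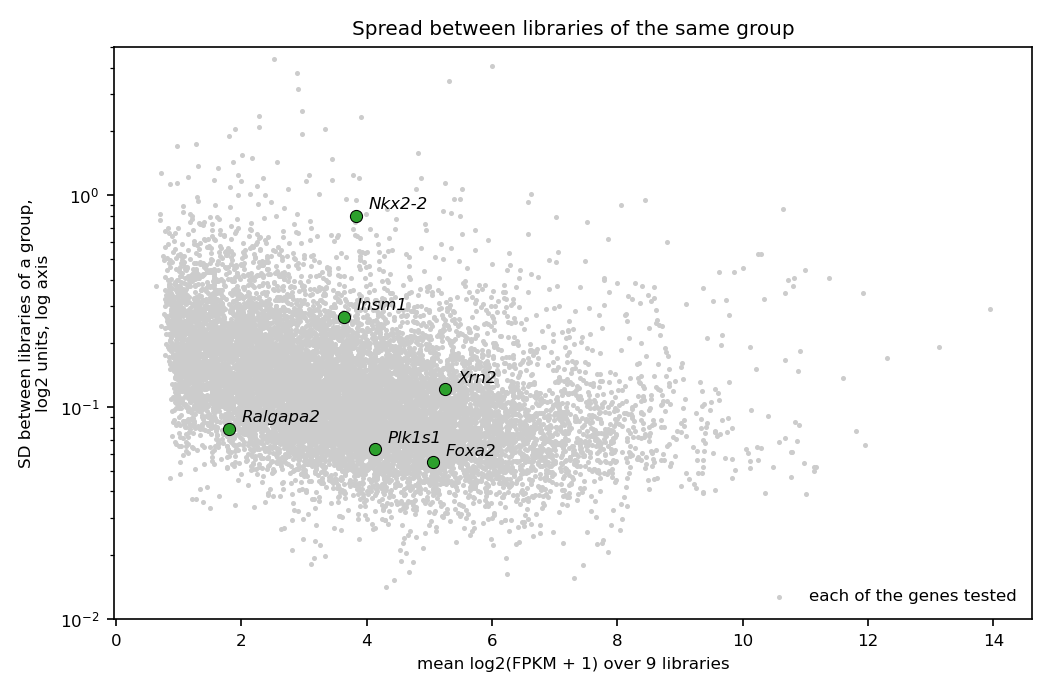
Spread between libraries of the same genotype, as the residual SD of log2(FPKM + 1), against the mean level of each tested gene, with the 6 tested genes of the locus marked. Nkx2-2 lies at 0.80 near the top of the cloud, Insm1 at 0.27, and Foxa2 at 0.055 near its lower edge.

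Differences between genotypes were tested with limma on log2(FPKM + 1), with all 9 libraries in the fit and p-values adjusted over all 13306 genes by the Benjamini-Hochberg method (threshold 0.05). A gene entered at 1 FPKM or more in at least 3 libraries, which 6 of the 8 genes did. The wild-type libraries serve both comparisons with wild type, so these are not independent of each other. For Nkx2-2 the knockout minus wild-type difference was -1.01 on the log2 scale (SE 0.53, 95% interval -2.20 to 0.17, limma adjusted p = 0.576). Without the library labelled knockout replicate 1 it was -1.66 (SE 0.36, adjusted p = 0.0912). That library was singled out by its own Nkx2-2 value, so this fit is no independent test. Without knockout replicate 2 the difference was -0.72 (limma adjusted p = 0.973), and without knockout replicate 3 it was -0.66 (limma adjusted p = 0.837). The heterozygote minus wild-type difference was -0.73 (SE 0.53, adjusted p = 0.945) and -0.33 without heterozygote replicate 1. Between knockouts and heterozygotes it was -0.28 (SE 0.53, adjusted p = 0.9998), -0.93 without knockout replicate 1 (adjusted p = 0.533) and -0.68 without heterozygote replicate 1. Its sign turned without heterozygote replicate 2 or knockout replicate 2 or 3 (0.038, 0.011 and 0.075). In bulk tissue, fewer cells that use the gene and less RNA per cell cannot be told apart.

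No gene of the locus passed in any comparison. For knockout against wild type 0 of the 6 tested genes were called, against a background of 0% of all genes tested, and limma-voom on the implied fragments also called 0 genes. Before adjustment 2 of the 6, Foxa2 and Plk1s1, were under a p of 0.05, as were 1117 genes or 8.39% of those tested. The same pair had knockout libraries that did not overlap wild type, Foxa2 above and Plk1s1 below, against 11.2% of all genes in either direction (4.55% above and 6.64% below). The pair is a larger share of 6 genes than these backgrounds, but it is 2 genes of a set proposed with results of these data known, and neither passed.

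For heterozygote against wild type 0 of 6 were called (0% of all genes, and 522 genes or 3.92% under an unadjusted p of 0.05, none of them from the locus). Only Foxa2 of the 6 did not overlap, above wild type, against 10.6% of all genes in either direction (3.54% above and 7.05% below). For knockout against heterozygote 0 of 6 were called (0% of all genes, and 296 genes or 2.22% before adjustment, again none of the 6). Foxa2 above and Plk1s1 below did not overlap, against 5.91% of all genes (3.48% above and 2.43% below). limma-voom called 0 genes in both. The differences of the other 5 genes lay between -0.08 (Xrn2) and 0.11 (Ralgapa2) for heterozygote against wild type, and between -0.12 (Plk1s1) and 0.09 (Foxa2) for knockout against heterozygote. The median log2 difference over the 6 genes was -0.07, -0.05 and -0.02 in the 3 comparisons, beside -0.03, -0.02 and -0.01 over all genes tested.

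**Figure D3:**
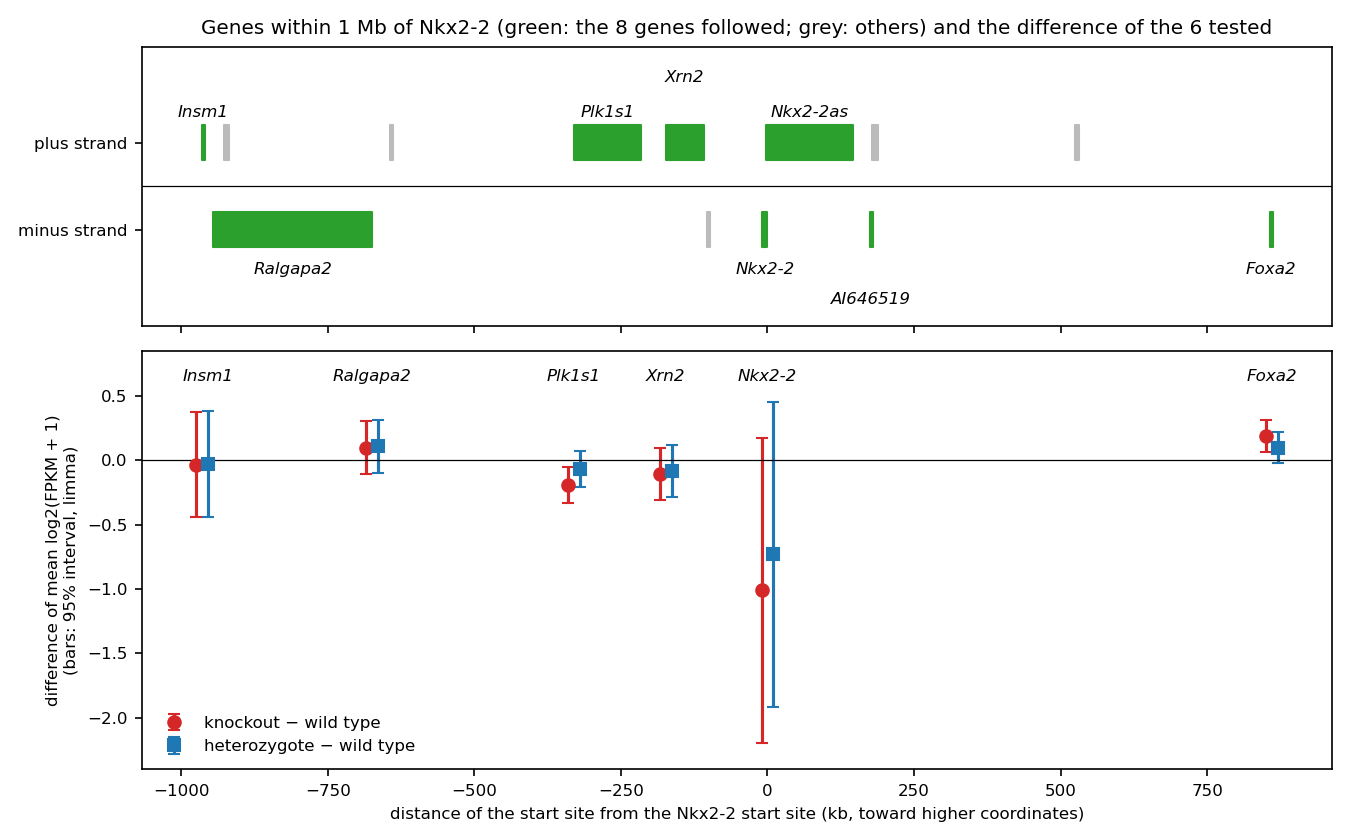
Above, the entries within 1 Mb of Nkx2-2 by strand (the 8 genes in green, others in grey). Below, the difference in mean log2(FPKM + 1) of each tested gene with its 95% limma interval, against the distance of its start from that of Nkx2-2 in kb, for knockouts and heterozygotes against wild type (drawn side by side). The intervals of Nkx2-2 are the widest and span 0, and those of Foxa2 and Plk1s1 lie on opposite sides of 0 for knockout against wild type.

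Insm1, the other endocrine lineage factor, lies 953 kb from Nkx2-2 and was at 10.1, 11.2 and 13.7 FPKM in wild type. It was at 10.7, 14.0 and 9.71 FPKM in the heterozygotes and at 15.1, 9.86 and 9.71 FPKM in the knockouts. The 3 groups overlapped, and knockout replicate 1 was the highest library. The group means were 11.7 ± 1.84, 11.5 ± 2.22 and 11.5 ± 3.05 FPKM (SD, n = 3 each). The knockout minus wild-type difference was -0.03 on the log2 scale (SE 0.18, 95% interval -0.44 to 0.38, limma adjusted p = 0.955). Leaving out wild-type replicate 3 gave 0.079 and leaving out knockout replicate 1 gave -0.22, so its sign was not fixed by these libraries. The highest Insm1 value was 1.55 times the lowest, against 4.65 times for Nkx2-2. Its spread within groups was still wide, with a residual SD of 0.27. That was larger than in 90.3% of tested genes and in 95.2% of the 1000 genes of most similar level. The deposited intervals of Insm1 were apart in 6 of the 9 pairs of the same genotype and in 12 of the 27 others.

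Foxa2, the endoderm factor, was at 29.3, 29.1 and 32.0 FPKM in wild type. It was at 32.5, 32.2 and 32.2 FPKM in heterozygotes and at 32.8, 35.5 and 35.2 FPKM in knockouts. Knockouts lay above heterozygotes and heterozygotes above wild type, though the highest wild-type library, at 31.99 FPKM, was just under the lowest heterozygote at 32.19. Shares over all genes are given above for pairs of groups only. None was computed for this order of 3 groups or for the intervals. The deposited intervals of no 2 libraries of the same genotype were apart, and those of 7 of the 27 pairs of different genotype were. The knockout mean of 34.5 ± 1.44 FPKM stood above the wild-type mean of 30.1 ± 1.61 (SD, n = 3), a log2 difference of 0.19 (SE 0.05, 95% interval 0.07 to 0.31, limma adjusted p = 0.576). With the sex of the embryo in the fit it was 0.15 and no longer under an unadjusted p of 0.05, and the knockout minus heterozygote difference went from 0.09 to 0.052. The residual SD of Foxa2 was 0.055, and 8.33% of tested genes had a smaller one.

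Plk1s1, the centrosome gene, was at 17.97, 16.4 and 18.3 FPKM in wild type. It was at 16.1, 16.4 and 17.6 FPKM in heterozygotes and at 15.3, 15.7 and 14.8 FPKM in knockouts. All knockout libraries lay below all others, while wild type and heterozygotes overlapped. No share over all genes was computed for knockouts below both other groups, or for the intervals. The deposited intervals were apart in 0 of the 9 pairs of the same genotype and in 6 of the 27 others. The means were 17.5 ± 1.01, 16.7 ± 0.775 and 15.3 ± 0.458 FPKM (SD, n = 3 each). The knockout minus wild-type difference was -0.19 (SE 0.06, 95% interval -0.33 to -0.05, limma adjusted p = 0.576), and -0.25 with sex in the fit.

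Xrn2, the termination exonuclease and the expressed gene nearest to Nkx2-2, was at 38.8, 36.0 and 41.6 FPKM in wild type. It was at 36.3, 38.0 and 35.5 FPKM in heterozygotes and at 41.6, 33.1 and 33.7 FPKM in knockouts. Knockout replicates 2 and 3 were the 2 lowest libraries and knockout replicate 1 the highest, so the knockouts lay on both sides of the other groups. The knockout minus wild-type difference was -0.10 (SE 0.09, 95% interval -0.31 to 0.10, limma adjusted p = 0.690), and -0.21 without knockout replicate 1 (adjusted p = 0.155). It was nearer 0 without knockout replicate 2 (-0.047), knockout replicate 3 (-0.059) or wild-type replicate 3 (-0.055). Its 2210 to 3398 implied fragments made it the best counted of the 8 genes.

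Ralgapa2, the Ral regulator, was at 2.41, 2.37 and 2.23 FPKM in wild type. It was at 2.40, 2.90 and 2.50 FPKM in heterozygotes and at 2.35, 2.70 and 2.67 FPKM in knockouts. All 3 groups overlapped, and the knockout minus wild-type difference was 0.10 (SE 0.09, 95% interval -0.11 to 0.31, limma adjusted p = 0.714). In spite of its low level per length, its long transcript gave 466 to 673 implied fragments.

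The noncoding neighbours were barely detected. Wild-type levels of Nkx2-2as were 0.142, 0.125 and 0.0206 FPKM. The heterozygotes had 0.0357, 0.0400 and 0.0577 FPKM and the knockouts 0.0479, 0.00937 and 0.0243 FPKM. These values stand for 0.511 to 13.8 implied fragments per library, so the 2 highest wild-type libraries rest on few fragments and the groups overlapped. The deposited intervals were apart in 1 of the 9 pairs of the same genotype and in 3 of the 27 others. It was below the filter and was not tested. AI646519 was listed at 0 in all 9 libraries. The Nkx2-2 and Nkx2-2as entries overlap by 2320 bases on opposite strands. In GENCODE the exons of these genes share 278 bases. Without a stated strand setting, reads from shared bases cannot be told apart.

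The genes whose pattern was most like that of Nkx2-2 included a granin and a gene with a role in secretion. Over the 9 libraries, the tested gene most like it on log2(FPKM + 1) was Syt13, a synaptotagmin (Pearson r 0.99, and 0.95 over the 6 libraries left without the 3 lowest in Nkx2-2). Vdr, the vitamin D receptor (0.98 and 0.86), Eepd1 (0.97 and 0.82), Adck2 (0.97 and 0.94) and Chga, a granin of endocrine granules (0.97 and 0.83), followed. Syt13 was at 16.5, 17.5 and 15.6 FPKM in the 3 libraries lowest in Nkx2-2 (heterozygote replicate 1, knockout replicates 2 and 3), and the other 6 had 20.95 to 28.1 FPKM. The 9 libraries share 3 genotypes and 1 tissue, and the 3 low ones form a cluster, so these values describe likeness and carry no p.

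The opposite end held Rsad2 (r -0.99, and -0.94 over the 6), an antiviral protein gene, and Cpped1 (-0.98 and -0.99), Fgd4 (-0.97 and -0.83), Pla2g1b (-0.97 and -0.71) and Camkk1 (-0.96 and -0.84). Pla2g1b, the pancreatic phospholipase A2, had the widest range of these. It was at 122, 162 and 130 FPKM in the 3 libraries lowest in Nkx2-2 and at 1.81 to 8.29 FPKM in the other 6. Sst, the somatostatin gene of delta cells, named here after its values were seen, was likewise at 375, 422 and 455 FPKM in those 3 libraries and at 151 to 201 FPKM in the others.

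Among the genes of the locus, Xrn2 was the one most like Nkx2-2 (r 0.81, rank 289 of 13305) and Insm1 the next (r 0.74, rank 557). Plk1s1 (0.49), Ralgapa2 (-0.43) and Foxa2 (-0.63) were less like it. Of the 36 pairs of libraries, Insm1 ordered 30 the same way as Nkx2-2, Xrn2 29, Plk1s1 26, Foxa2 10 and Ralgapa2 8. Without the 3 lowest libraries r was 0.69 for Xrn2 and 0.83 for Insm1, and -0.39 for Plk1s1 and 0.21 for Foxa2, which both had the other sign. The likeness of Plk1s1 and the unlikeness of Foxa2 thus rested on those 3 libraries.

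The other endocrine transcription factors had narrower ranges than Nkx2-2. Of the 14 factors in the list, Nkx2-2 and Insm1 among them, 0 passed in any comparison. For knockout against wild type 12 of 14 had a negative value, with a median of -0.21 beside -0.03 over all genes. Neurog3, the factor that starts the endocrine lineage, was at 60.5 ± 11.2 FPKM in wild type and 51.4 ± 14.9 in knockouts (SD, n = 3, log2 difference -0.25, SE 0.20). Pdx1, which specifies the pancreas and later beta cells, was at 33.3 ± 3.06 and 35.8 ± 1.67 FPKM, and Nkx6-1, a beta cell homeodomain factor, at 21.6 ± 3.09 and 21.7 ± 1.93 FPKM. The highest library was 4.65 times the lowest for Nkx2-2, 2.96 times for Mafa, the next widest, and 1.67 times at the median of the 14.

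**Figure D4:**
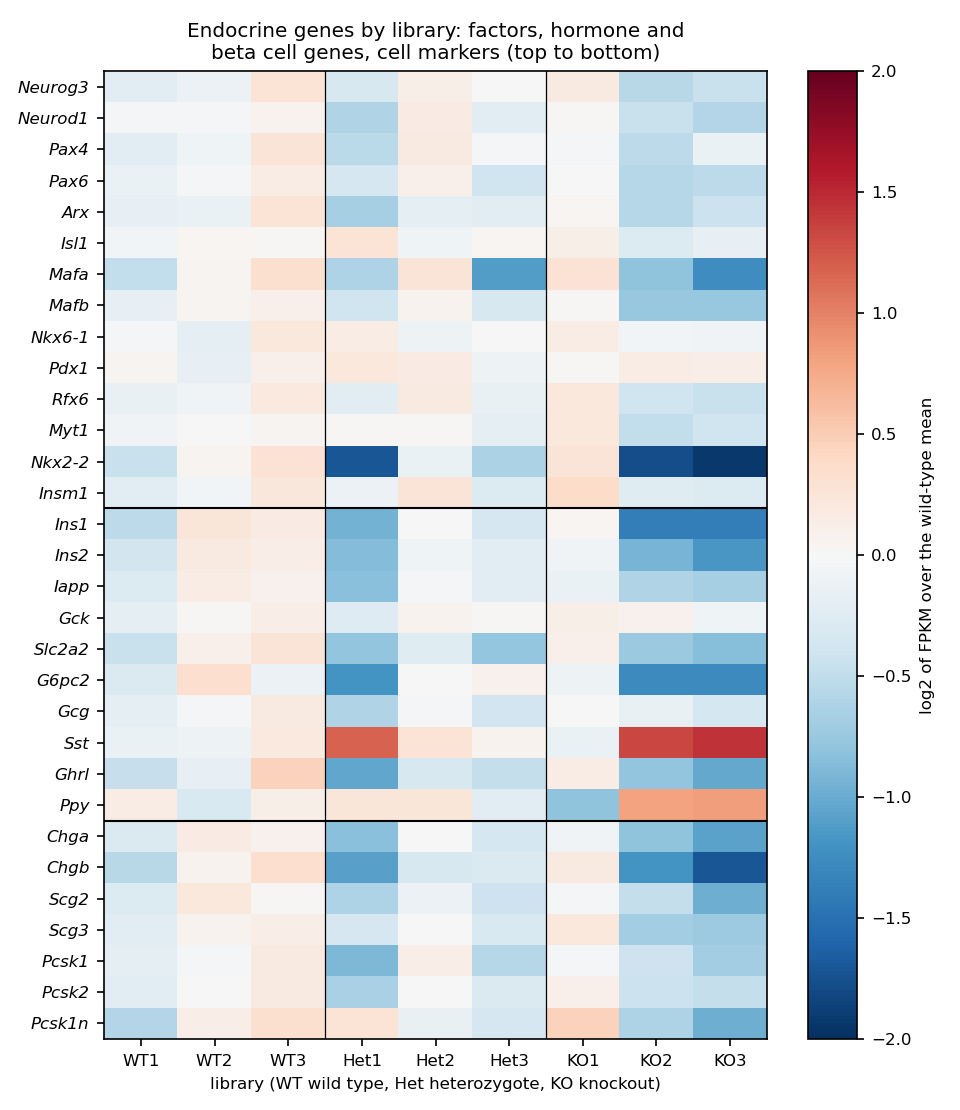
Heat map of endocrine transcription factors, hormone and beta cell genes and endocrine markers (rows, top to bottom) in each of the 9 libraries (columns), coloured by log2 of FPKM over the wild-type mean. Nkx2-2 spans 4.65 times between its highest and lowest library, and heterozygote replicate 1 and knockout replicates 2 and 3 are its 3 lowest.

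Hormone and beta cell genes gave 0 of 10 passed in any comparison, with 7 of 10 negative and a median of -0.43 for knockout against wild type. Ins2, an insulin gene, was at 2658 ± 529 FPKM in wild type and 1702 ± 719 in knockouts (SD, n = 3), Ins1 at 609 ± 163 and 365 ± 227, Iapp, the islet amyloid peptide, at 464 ± 71.3 and 341 ± 73.0, and Gcg, the glucagon gene of alpha cells, at 913 ± 120 and 813 ± 96.6 FPKM. In wild-type pancreas every one of these 4 transcripts was far above Nkx2-2 per length. Ins2 followed the libraries as Nkx2-2 did, with 1463, 1390.1 and 1191 FPKM in the 3 libraries low in Nkx2-2 and 2049.8 to 3007 FPKM in the others.

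General endocrine markers were compared next. For 5 of the 7 the 3 libraries lowest in Nkx2-2 were also the 3 lowest, and Pcsk1 and Pcsk1n were the exceptions. The 7 markers, granins and prohormone convertases, were all negative for knockout against wild type (0 passed, median -0.37). Their summed level was 214 to 304 FPKM in wild type, 162 to 256 in heterozygotes and 131 to 283 in knockouts. Chga was at 109 ± 17.2 FPKM in wild type and 72.5 ± 27.5 in knockouts, and Chgb at 63.2 ± 18.8 and 39.6 ± 28.1 (SD, n = 3). Chgb had the widest range of the 7, with its highest library 4.15 times the lowest.

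Nkx2-2 was also set over this marker sum. Per 100 FPKM of the 7 markers it was 7.11, 7.44 and 8.37 in wild type. The heterozygotes gave 3.94, 7.41 and 6.30, and the knockouts 8.82, 3.84 and 4.20. Heterozygote replicate 1 and knockout replicates 2 and 3 were the lowest, and knockout replicate 1 was the highest. Insm1 was at 4.72, 3.85 and 4.50 in wild type, 6.63, 5.45 and 4.55 in heterozygotes and 5.33, 6.23 and 7.44 in knockouts on this scale. The marker sum was lowest in the 3 libraries low in Nkx2-2, at 162, 158 and 131 FPKM, which raises every ratio there. Ratios of Xrn2 (22.4, 20.9 and 25.8), Foxa2 (20.1, 22.4 and 26.97) and Plk1s1 (9.97, 9.90 and 11.3) were each highest in those 3 libraries, as were those of Insm1. The part of endocrine cell number in these differences was not tested, and such ratios cannot separate it from the level per cell.

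**Figure D5:**
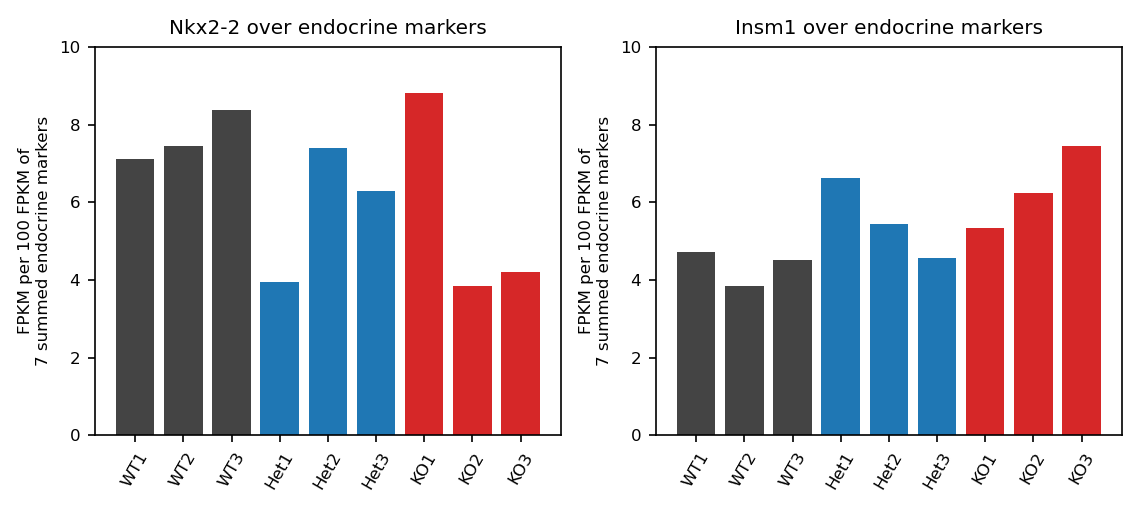
Nkx2-2 and Insm1 in FPKM per 100 FPKM of 7 summed endocrine markers, 1 bar per library in wild type (grey), heterozygote (blue) and knockout (red). Nkx2-2 is near 4 in heterozygote replicate 1 and knockout replicates 2 and 3 and at 6.30 or more elsewhere, while Insm1 lies between 3.85 and 7.44.

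Partners of the other genes were compared from lists. Of 6 corepressors that act with Nkx2-2, 0 passed and 5 had negative values for knockout against wild type (median -0.10). Hdac1, a histone deacetylase, was at 28.0 ± 0.511 and 27.3 ± 2.08 FPKM in wild type and knockouts, and Dnmt3a, a DNA methyltransferase, at 21.6 ± 0.469 and 18.5 ± 1.66 (SD, n = 3). The Groucho-type genes Tle1 and Tle3 were at 14.7 ± 0.284 and 12.9 ± 0.861 FPKM and at 14.5 ± 0.202 and 12.5 ± 1.75 FPKM. None of the 4 varied between libraries as widely as Nkx2-2, with highest values at most 1.29 times the lowest.

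Endoderm and epithelium factors, the group of Foxa2, gave 0 of 10 tested genes passed, with 9 of 10 positive for knockout against wild type (median 0.12). Foxa2 itself is counted among these genes. Gata4 was at 54.0 ± 7.47 FPKM in wild type and 65.1 ± 5.73 in knockouts, and Sox9 at 24.7 ± 1.10 and 26.0 ± 0.311 FPKM (SD, n = 3). Gata6, at 27.2 ± 1.27 and 23.1 ± 2.33 FPKM, was the 1 with a negative value. Markers of other cell types differed beside these: 7 of 8 acinar markers had positive values (median 0.20, summed level 17033 to 17414 FPKM in wild type and 16034 to 24629 in knockouts) and 8 of 8 mesenchyme markers negative ones (median -0.36, 1030.4 to 1430.0 and 829 to 1186 FPKM), with 0 passed in either list. Of the 5 duct and trunk markers tested 3 were negative (median -0.08, 0 passed). Their part in the Foxa2 values was not tested.

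The lists of general function, with Xrn2, Ralgapa2 and Plk1s1 themselves counted in them, lay near the background. For knockout against wild type 4 of 7 genes of Xrn2 and transcription termination were negative (median -0.01), as were 3 of 5 of Ral GTPase regulation (median -0.02) and 4 of 8 centrosome genes around Plk1s1 (median -0.00), and 0 passed in each. Cpsf3, an endonuclease of RNA 3' end cleavage, was at 61.3 ± 3.10 FPKM in wild type and 69.7 ± 1.20 in knockouts (SD, n = 3). Plk1, the kinase that Plk1s1 is named for, was at 59.9 ± 5.72 and 61.7 ± 5.05 FPKM, and Tubg1, gamma tubulin, at 39.9 ± 1.82 and 40.3 ± 1.25 FPKM. Ralb and Rala, the GTPases that the Ralgapa2 complex acts on, were at 58.5 ± 0.913 and 56.4 ± 1.44 FPKM and at 32.6 ± 1.85 and 33.4 ± 1.03 FPKM.

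Gut and neural markers were also read, since Nkx2-2 is used in intestinal endocrine cells and in the nervous system. The gut and stomach markers summed to 69.6 to 81.0 FPKM in wild type, 66.5 to 88.1 in heterozygotes and 73.8 to 92.9 in knockouts. Of the 5 that could be tested 3 were negative for knockout against wild type (median -0.12) and 0 passed. Tff2, a stomach peptide gene, was highest at 33.5 ± 6.60 FPKM in wild type and 36.7 ± 5.49 in knockouts (SD, n = 3). The neural markers summed to 65.4 to 110 FPKM in wild type, 39.6 to 207 in heterozygotes and 44.4 to 166 in knockouts, with 3 of 5 tested genes positive (median 0.14) and 0 passed. In the 3 libraries lowest in Nkx2-2 the neural sums were 207 (heterozygote replicate 1), 44.4 and 47.5 FPKM (knockout replicates 2 and 3). The part of neural RNA in the Nkx2-2 values was not tested.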

How the data were processed

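Per the labels' protocols, TruSeq libraries were made from total RNA of dissected pancreas. The reads went to mm9 through TopHat 2.0.4 (4 mismatches, at most 10 hits), per the labels' design text. CASAVA 1.8.2, Cufflinks and DESeq are named in the submitters' processing notes. The deposited tables give FPKM with confidence bounds per gene. Neither annotation nor strand setting is stated.

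FPKM of the 248 symbols with several loci were summed, and 4 symbols that failed for excess data were removed. Fragments implied by the upper bound (taken as 2 counting errors) were whole within 0.05 for 73.5% to 74.44% of values under 500, so no count test was the main one. log2(FPKM + 1) was tested in R 4.3.3 with limma 3.58.1 (intensity trend, all 9 libraries, genotype only, 13306 genes), two-sided, after a check on simulated data with 200 changed genes. This scale understates changes of low genes. The 8 genes, the gene lists and the rule for named genes (genes within 1 Mb, the 5 most and 5 least like Nkx2-2, up to 4 per list with the highest wild-type mean) were chosen with earlier results of these data known. Alternatives changed the pseudocount, filter, scaling, model, libraries, replicate block, sex term and failed estimates.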

Additional observations from a re-analysis of the deposited data

How the results depend on the processing

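Under 17 alternatives no gene of the locus passed the threshold. Of the 18 differences (6 genes in 3 comparisons), 12 kept their sign throughout, among them all those of Foxa2 and Plk1s1. Some alternatives could not move a difference, so a kept sign there was fixed in advance. These were no filter, only the 2 groups compared, the replicate block, failed estimates missing, and leaving out a library of the genotype not compared. The sex term likewise could not move heterozygote against wild type. The smallest adjusted p was 0.0912, for Nkx2-2 in knockout against wild type without knockout replicate 1, and leaving out single libraries moved that difference between -1.66 and -0.66. The other 6 differences changed sign. On leaving out single libraries Insm1 ran from -0.22 to 0.079 for knockout against wild type, from -0.17 to 0.082 for heterozygote against wild type and from -0.19 to 0.14 for knockout against heterozygote. In that last comparison Nkx2-2 ran from -0.93 to 0.075, Xrn2 from -0.13 to 0.034 and Ralgapa2 from -0.051 to 0.048. There Insm1 was 0.0078 with median-ratio scaling and Ralgapa2 0.032 with sex as a covariate. The cause was not tested.

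Counts of called genes were 0 in each comparison. With only the 2 groups compared in the fit, 1 gene (Cyp2c70) was called for knockout and 6 for heterozygote against wild type. Leaving out single libraries gave 0 to 1 genes for knockout against wild type (1 without wild-type replicate 1 or 2, heterozygote replicate 1 or knockout replicate 1). It gave 0 to 7 for heterozygote against wild type (7 without knockout replicate 1, 2 without heterozygote replicate 2, 1 without wild-type replicate 1) and 0 to 4 for knockout against heterozygote (4 without knockout replicate 1, 1 without heterozygote replicate 1 or 2). The number of genes under an unadjusted p of 0.05 for knockout against wild type ran from 399 to 2628.

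With the replicate number as a block, 1 gene (Lst1) was called for heterozygote against wild type. Every genotype holds each number, so the block can change only the SE of a difference, not its size. For knockout against wild type Nkx2-2 was thus at -1.01, as in the main test (SE 0.60, against 0.53). The labels give the number no meaning. Deviations of same-numbered libraries correlated from -0.19 to 0.29, with 4 of 9 pairs over 0.1, so the numbers were not taken to pair the libraries. Nkx2-2as had no more than 13.8 implied fragments per library, which limits its precision.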
